A study of Mus musculus with 7 samples.

Results

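Myc and Mycn, the transcription factor genes of the Myc family with the widest expression in the embryo, were taken by symbol from the count files, as 2 of 32285 genes. They were followed through classes of sorted neural crest lineage cells in 7 droplet single-cell libraries of mouse embryos. All libraries came from EGFP-positive cells of embryos labelled Swiss-Webster, kept on a mixed background of that stock, that carried Wnt1-Cre/+ and ROSA-EGFPf/+, in which Cre under Wnt1 control turns on EGFP in the neural crest and in the dorsal neural tube, so neural cells were sorted along with migrating crest. Control embryos gave libraries of E8.5 (1 library, anterior part of the embryo with the head), of E9.5 (1 library, pharyngeal apparatus and heart, with the first arch) and of E10.5 (2 libraries, arches 2 to 6 and heart). The libraries titled Tbx1null were made at E9.5 (1 library) and at E10.5 (2 libraries, tissue below the first arch). The design text calls these embryos Tbx1 null, while their genotype label gives Wnt1-Cre/+;Tbx1+/-;ROSA-EGFPf/+. The paper's summary of its libraries lists them as Wnt1-Cre/+;Tbx1-/-;ROSA-EGFPf/+. They are called Tbx1 null here, after the titles and that summary. Each library pooled several embryos, so the library, and not the cell, was the replicate.

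Myc and Mycn proteins are basic helix-loop-helix leucine zipper factors that pair with Max and bind the E-box CACGTG. Among their best known targets are genes for ribosome assembly, nucleotide and polyamine synthesis and energy metabolism, by which they promote growth and division. The Mxd proteins and Mnt compete for Max and oppose them. Myc is known from the neural plate border and the early neural crest, and Mycn from neural progenitors and from neuroblastoma, a tumour of the sympathetic crest lineage.

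On GRCm38 with GENCODE vM21, Myc (ENSMUSG00000022346) lies on the plus strand of chromosome 15 at chr15:61985391-61990374. The long non-coding gene Pvt1 follows it on the same strand at chr15:62037986-62378096. Mycn (ENSMUSG00000037169) lies on the minus strand of chromosome 12 at chr12:12936093-12941914. The bases just upstream of the annotated Mycn start are shown because they hold repeated matches to TTTGGCGC, a form of the site bound by the cell cycle factors of the E2f family, and the level of Mycn is compared between cycling and other cells further on. The sequence is from RefSeq (GRCm38.p6, chr12:12941915-12942086, minus strand, read 5′ to 3′), and the capitals mark the matches, searched on both strands:
Mycn: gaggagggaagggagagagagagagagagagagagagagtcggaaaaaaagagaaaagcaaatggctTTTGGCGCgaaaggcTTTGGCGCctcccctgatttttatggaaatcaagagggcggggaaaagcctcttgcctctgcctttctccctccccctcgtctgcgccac
Of 32851 promoter entries, 87 (0.265%) held this motif in the first 172 bases, and 1 of them, that of Mycn, held it at least 2 times. Each entry begins 250 bases before its own start, so this window leaves out the bases nearest that start. For Mycn the window ends at the GENCODE start. The motif was chosen after the sequence had been seen, and the matches are a description of the letters only. The E-box CACGTG, a palindrome, was not among the 300 bases of the Mycn entry, which says only that these letters are not in that window. Of 30 listed Myc target genes, 24 had an entry, and 9 of these (37.5%) held CACGTG within 250 bases before and 50 bases after the start, against 2187 of 27025 genes (8.09%). Of those targets, Cdk4, Eif4e, Ldha and Nme1 had further E-boxes that are not printed. The E-boxes of the other targets that held one, Ran among them, are not printed either. Windows around a single E-box each in 5 of those targets are given because their levels are compared with those of Myc and Mycn below (GRCm38.p6, E-box in capitals). They are chr10:127063429-127063450 (plus strand) for Cdk4, chr3:138527196-138527217 (plus) for Eif4e, chr1:55088310-55088331 (minus) for Hspd1, chr7:46845748-46845769 (plus) for Ldha and chr11:93968041-93968062 (minus) for Nme1:
Cdk4: caacaggtCACGTGgccgtcag
Eif4e: acgtccgtCACGTGggcaggag
Hspd1: ggctgggaCACGTGaaaaggcc
Ldha: ccagcctaCACGTGggttcccg
Nme1: tgatacgcCACGTGggctcgcc

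Cells were assigned to 4 classes by unique molecular identifiers (UMIs, each standing for 1 captured transcript molecule). Mesenchymal cells had at least 2 UMIs of Twist1, Prrx1 and Prrx2 together. Sox10 cells, the early migratory, glial and neurogenic crest, had at least 2 UMIs of Sox10, and cells passing both rules were counted apart. Among the rest, neuronal cells had at least 3 UMIs of Elavl3, Elavl4 and Stmn2, and neural progenitors at least 2 of Sox1, Sox2 and Sox3. Mesenchymal cells were split by position into Hox 3 cells (at least 1 UMI of Hoxa3, Hoxb3 or Hoxd3), Hoxa2 cells (Hoxa2 but no Hox 3 UMI) and Hox-negative cells. A missing UMI does not show that a gene is off, so the Hox-negative group also holds cells in which the Hox transcripts were not captured. A single UMI can also come from free RNA in a droplet, and the share of such cells in the Hoxa2 and Hox 3 groups was not measured.

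The libraries held 140264662 to 234844769 UMIs, and 5587 to 9555 cells each were kept. Myc had 522 to 5359 UMIs and Mycn 3873 to 18680 UMIs per library over all kept cells, and libraries shared at most 0.410% of barcodes. Tbx1 had 58, 122, 634 and 568 UMIs in the control libraries (E8.5, E9.5, then replicates 1 and 2 of E10.5), and 125, 498 and 341 UMIs in the Tbx1 null libraries at E9.5 and in replicates 1 and 2 at E10.5. The sources used here do not say whether the counted 3′ end lies in the deleted part of Tbx1, so these counts do not check the genotype. At E8.5 the class labels were weak: markers not used in the rules summed to 90.0 CPM (counts per 10 to the power of 6 UMIs of the class) for mesenchymal markers and 247 CPM for Sox10 lineage markers in the mesenchymal class, and 1675 cells (30% of that library) passed both rules. Mesenchymal markers did not set the mesenchymal class apart from neural progenitors at E9.5, with 236 against 248 CPM in the control and 262 against 257 CPM in the Tbx1 null library. At E10.5 they came to 438 to 559 against 259 to 391 CPM, and the part of this in the class comparisons was not tested. Neural progenitor markers in the neural progenitor class summed to 250 CPM at E8.5 and to 1272 CPM or more in the other libraries. In Tbx1 null replicate 2 at E10.5 the mesenchymal class carried 682 CPM of neuronal markers, against 15.7 to 123 CPM in the other libraries. Blood markers stayed at or below 10.2 CPM in the 4 classes. Kit versions also differed: v2 at E8.5, v3 in the Tbx1 null libraries of E9.5 and E10.5 replicate 1, and v3.1 in the others.

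Averaged over the 7 libraries, Myc ranked highest in mesenchymal cells and lowest in the neural classes, and in each class its highest library was E8.5. In mesenchymal cells its level was 49.8 CPM at E8.5, 32.1 CPM in control and 31.6 CPM in Tbx1 null cells at E9.5, 5.39 and 5.82 CPM in the control replicates at E10.5, and 16.4 and 5.56 CPM in the Tbx1 null replicates. The library of E8.5 and both libraries of E9.5 thus lay above all 4 of E10.5, and 1 of the 4, Tbx1 null replicate 1, stood above the other 3. In Sox10 cells Myc was at 36.2 CPM at E8.5, at 8.85 (control) and 7.92 CPM (Tbx1 null) at E9.5, at 5.72 and 3.66 CPM in the control replicates and at 6.92 and 6.08 CPM in the Tbx1 null replicates at E10.5. Single libraries departed from that order at E10.5, since Sox10 cells lay above mesenchymal cells in control replicate 1 and Tbx1 null replicate 2. In neural progenitors the same libraries gave 23.5, then 4.02 and 3.49, then 1.43 and 4.24, and then 5.52 and 1.88 CPM. Those of control E10.5 replicate 2 lay above its Sox10 cells. Neuronal cells gave 16.7, then 3.85 and 0.453, then 1.75 and 3.12, and then 4.396 and 2.05 CPM. The E9.5 neuronal values rest on 11 and 1 Myc UMIs. Over each neural class as a whole, the low levels of E9.5 and E10.5 overlapped between stages and genotypes. Neural progenitors were not uniform: those with at least 2 UMIs of Hoxa2, Hoxb2 and the Hox 3 genes and none of Otx2 had Myc at 5.52 CPM at E8.5, at 3.52 (control) and 3.30 CPM (Tbx1 null) at E9.5, and at 0.690 and 1.12 CPM in the control and 2.45 and 1.49 CPM in the Tbx1 null replicates at E10.5. In these Hox-bearing progenitors both E9.5 libraries lay above all 4 of E10.5, on 6 to 82 Myc UMIs per library.

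Mycn lay above Myc in each of the 4 classes of each library, and it did not follow the same order of classes. Neural progenitors with at least 2 Otx2 UMIs, described further on, held more Myc than Mycn UMIs at E10.5. In mesenchymal cells it was at 137 CPM at E8.5, at 107 (control) and 101 CPM (Tbx1 null) at E9.5, at 29.6 and 24.0 CPM in the control replicates and at 74.0 and 33.8 CPM in the Tbx1 null replicates at E10.5. Sox10 cells gave 164, then 78.8 and 73.8, then 60.2 and 64.6, and then 168 and 89.1 CPM in the same order. In neural progenitors the level was 86.6, then 63.3 and 63.9, then 62.8 and 38.3, and then 134 and 68.0 CPM. For these classes the E9.5 libraries fell inside the range of the E10.5 libraries, while mesenchymal cells showed no such overlap. Neuronal cells gave 101, then 31.2 and 32.2, then 36.5 and 22.1, and then 64.9 and 44.5 CPM. They lay above mesenchymal cells in control replicate 1 and Tbx1 null replicate 2 at E10.5 and above neural progenitors at E8.5. Tbx1 null replicate 1 was the highest of the 4 E10.5 libraries in each class.

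**Figure D1:**
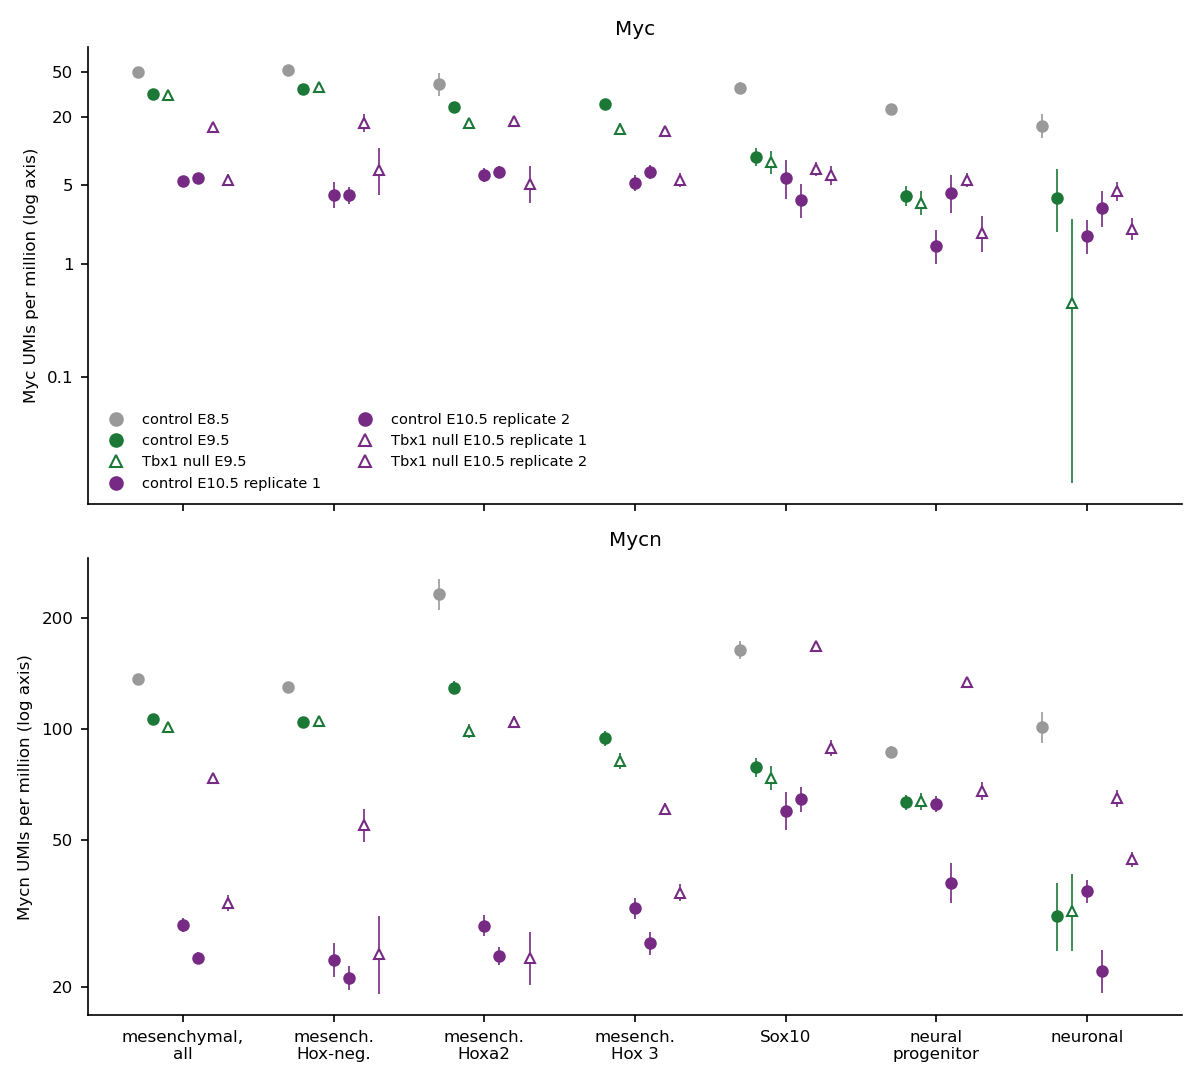
CPM of Myc (upper panel) and Mycn (lower panel) on log axes for each cell class and library, with circles for control and triangles for Tbx1 null libraries and bars for the exact 95% Poisson interval, which covers counting error only. Mesenchymal levels of Myc run from 31.6 to 49.8 at E8.5 and E9.5 and from 5.39 to 16.4 at E10.5, and those of Mycn in neural progenitors from 38.3 to 134 over all libraries.

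Which class used which gene was tested with the library as a block over all 7 libraries (edgeR quasi-likelihood, Benjamini-Hochberg over 14187 genes). Myc was lower than in mesenchymal cells by a log2 difference of -0.99 ± 0.30 (SE) in Sox10 cells (adjusted p = 0.0175), -1.99 ± 0.31 in neural progenitors (2.29e-05) and -2.14 ± 0.33 in neuronal cells (8.97e-06). It was also lower than in Sox10 cells in neural progenitors (-1.004, adjusted p = 0.0133) and in neuronal cells (-1.15, 0.00563). Neural progenitors and neuronal cells, the lowest neighbours in this order, did not pass (-0.15 ± 0.34, adjusted p = 0.749). The comparisons with mesenchymal cells had a high background, since 29% of all genes were called between Sox10 and mesenchymal cells, 45.7% between neural progenitors and mesenchymal cells and 65.2% between neuronal and mesenchymal cells. Averaged over the 7 libraries, Mycn was lowest in neuronal cells, by -0.64 ± 0.26 against mesenchymal cells (adjusted p = 0.0359), -0.67 ± 0.26 against neural progenitors (0.0312, background 54.4%) and -1.15 ± 0.26 against Sox10 cells (0.000572, background 63.4%). The upper 3 classes did not pass in any pair for Mycn: Sox10 minus mesenchymal cells came to 0.51 ± 0.25 (adjusted p = 0.142), neural progenitors minus mesenchymal cells to 0.03 ± 0.25 (0.934) and neural progenitors minus Sox10 cells to -0.48 ± 0.25 (0.123, background 48.6%). The averages against mesenchymal cells join opposite orders. By the levels above, neural progenitors lay below mesenchymal cells at E8.5 and E9.5 and above them in each E10.5 library. Sox10 cells lay below mesenchymal cells at E9.5 and above them in the other libraries. The Sox10 call for Myc was lost without the control E9.5 library (-0.78), the Tbx1 null E9.5 library (-0.75) or Tbx1 null E10.5 replicate 1 (-0.92), and without either of the former the Mycn difference of that pair passed (0.74 and 0.72). The Mycn call of neuronal against mesenchymal cells was lost without the E8.5 library (-0.63), the control E9.5 library (-0.39) or the Tbx1 null E9.5 library (-0.43), and that of neuronal cells against neural progenitors without control E10.5 replicate 1 (-0.65) or 2 (-0.66) or Tbx1 null E10.5 replicate 1 (-0.61). With the cells that passed both rules counted in, Myc no longer differed past the threshold between Sox10 and mesenchymal cells (-0.45, adjusted p = 0.268).

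The balance between both genes can be read within a library, where depth and kit are shared. Of all Myc and Mycn UMIs in mesenchymal cells, Myc made up 26.7% at E8.5, 23.1% (control) and 23.8% (Tbx1 null) at E9.5, 15.4% and 19.5% in the control replicates and 18.2% and 14.1% in the Tbx1 null replicates at E10.5. In Sox10 cells the share was 18.1%, then 10.1% and 9.70%, then 8.68% and 5.36%, and then 3.95% and 6.39%. Neural progenitors gave 21.4%, then 5.97% and 5.18%, then 2.23% and 9.96%, and then 3.96% and 2.69%. A few cells with at least 2 Otx2 UMIs, noticed after the values were seen, weigh on this share at E10.5: 18 of 36 Myc UMIs came from 33 of 1516 cells in control replicate 1 and 16 of 28 from 32 of 599 cells in control replicate 2. In the Tbx1 null replicates they gave 74 of 197 and 8 of 32 Myc UMIs. In Hox-bearing progenitors the share was 1.03%, 2.63%, 1.72% and 2.08% in the 4 libraries of E10.5. The mesenchymal share was the highest of the 4 classes in each of the 7 libraries. In neuronal cells it was 14.1% at E8.5, 11% and 1.39% at E9.5 and 4.41% to 12.4% at E10.5. The log2 ratio of Myc to Mycn UMIs was higher in mesenchymal than in Sox10 cells by 1.48 ± 0.61 (SD, n = 7 libraries, positive in 7 of 7), with p = 0.0156, the smallest that the exact two-sided sign-flip permutation test over 7 libraries can give, and 0.0313 after adjustment over 6 pairs. Against neural progenitors the difference was 2.03 ± 0.92 and against neuronal cells 1.78 ± 1.02, each in 7 of 7 libraries and with the same exact permutation p and adjusted p. The other 3 pairs did not pass (adjusted exact permutation p = 0.352 to 0.547). Leaving out any library leaves 6, for which the smallest possible exact permutation p is 0.0313 and the adjusted p of the first 3 pairs 0.0625, so all 3 calls are lost whichever library is left out. The mean differences then ran from 1.32 to 2.30.

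**Figure D2:**
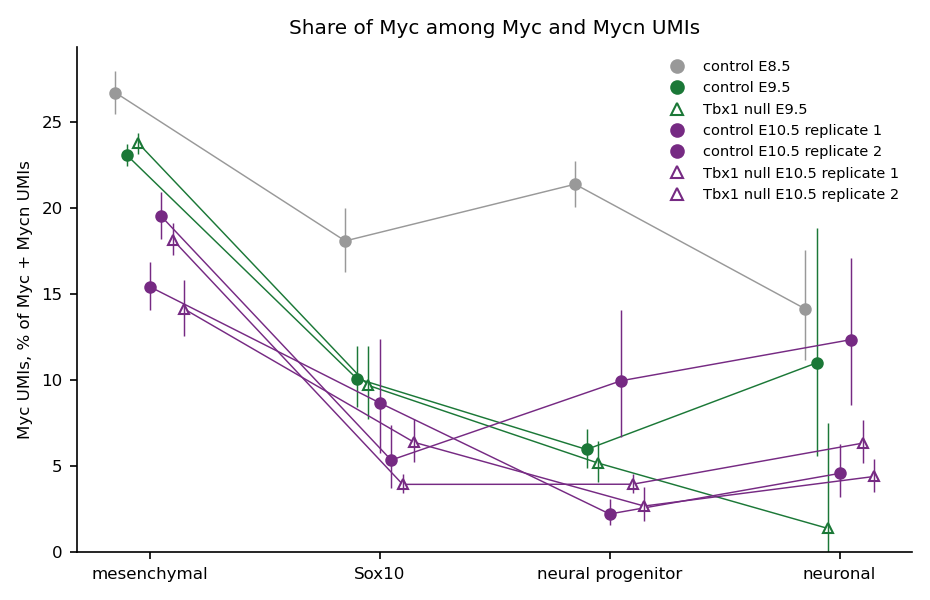
Myc UMIs as a percent of Myc and Mycn UMIs (y axis from 0) in the 4 classes (x axis), with 1 line per library, circles for control and triangles for Tbx1 null libraries and bars for the exact 95% binomial interval. Each line starts at its highest point in mesenchymal cells, between 14.1% and 26.7%, and the E8.5 neural progenitors reach 21.4%.

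Between E9.5 and E10.5 both genes fell in mesenchymal cells. The stage was tested over the 6 libraries of these days with genotype as a covariate (2 libraries against 4), and E8.5 stayed out of the test because it is 1 library of another kit and tissue. Myc fell by 2.54 ± 0.42 on the log2 scale (adjusted p = 0.00913) and Mycn by 1.99 ± 0.36 (0.0117), in a comparison that called 22% of 17233 genes. Part of the size depends on scaling: TMM factors of the mesenchymal class, taken over all 7 libraries, were 0.80 and 0.84 at E9.5 and 1.10 to 1.31 at E10.5. The fit over 6 libraries computed its own factors, which are not given. With library totals instead, an alternative added after the data were seen, the median of all genes rose from 0.08 to 0.60, calls went from 1904 higher and 1894 lower genes to 5774 and 583 (33.5% and 3.38%), and both members still fell, Myc by 2.04 (adjusted p = 0.0132) and Mycn by 1.49 (0.0192). The calls were lost without the control E9.5 library (Myc -2.05, adjusted p = 0.117, and Mycn -1.45, 0.139) and without the Tbx1 null E9.5 library (-2.98, 0.0588, and -2.46, 0.0563), each of which leaves a lone E9.5 library whose spread is taken from the others. Over the control libraries alone, which share kit v3.1, the change was -2.98 for Myc and -2.47 for Mycn (also added later), in a fit of 1 library of E9.5 against 2 of E10.5 in which the lone E9.5 library is assumed to vary like the others. The first arch was in the tissue at E9.5 and not at E10.5, so in cells without Hox UMIs stage and tissue cannot be told apart.

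The split by Hox UMIs gave the change by position. Hox-negative cells, which include the first arch at E9.5, held Myc at 35.7 and 37.1 CPM at E9.5 and at 4.09, 4.04, 17.8 and 6.78 CPM at E10.5 (control replicates 1 and 2, then Tbx1 null replicates 1 and 2). There Myc fell by 2.95 ± 0.37 on the log2 scale (adjusted p = 0.000594) and Mycn by 2.38 ± 0.27 (0.000465, background 32.8%), and both calls held without either E9.5 library. In Hox 3 cells, named for genes that mark crest of the third and more caudal arches, Myc was at 25.8 and 15.8 CPM at E9.5 and at 5.24, 6.49, 15.1 and 5.54 CPM at E10.5. Tbx1 null replicate 1 lay close to the Tbx1 null E9.5 library, and the other 3 lay below both E9.5 values. Myc fell by 1.81 ± 0.45 (adjusted p = 0.0366) and Mycn by 1.63 ± 0.28 (0.0131, background 14.5%). Both Hox 3 calls were lost without the control E9.5 (-0.996 and -1.16) or the Tbx1 null E9.5 library (-2.52 and -2.07), and that of Myc also without control E10.5 replicate 1 (-1.59) or 2 (-1.75) or Tbx1 null E10.5 replicate 2 (-1.67). In Hoxa2 cells Myc fell by 1.61 ± 0.44 (adjusted p = 0.0459, background 12.4%), and Mycn, at -1.83 ± 0.52, missed the threshold (0.0502). The stages overlapped there, since Tbx1 null E10.5 replicate 1 lay above the Tbx1 null E9.5 library. Its values were 18.5 against 17.6 CPM for Myc and 105 against 98.9 CPM for Mycn. The other E10.5 libraries lay below both E9.5 libraries for both genes. The Hoxa2 call of Myc was lost without any of 5 libraries (-0.87 without control E9.5, -2.24 without Tbx1 null E9.5, -1.46 and -1.49 without control E10.5 replicates 1 and 2, -1.44 without Tbx1 null E10.5 replicate 2), and without Tbx1 null E10.5 replicate 1 Mycn passed (-2.54).

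The other classes were tested in the same way. In Sox10 cells Myc fell by 0.99 ± 0.26 (adjusted p = 0.0264, background 19.2%), a call lost with library totals (-0.61), without either E9.5 library (-0.66 without control, -1.34 without Tbx1 null) or without control E10.5 replicate 2 (-0.80). Mycn did not pass there (-0.17 ± 0.30, adjusted p = 0.715), and its sign turned with library totals (0.20). In neural progenitors Myc came to -0.58 ± 0.45 (adjusted p = 0.410) and Mycn to -0.15 ± 0.30 (0.768, background 8.57%), and in neuronal cells to 0.05 ± 0.73 (0.976) and 0.06 ± 0.29 (0.923, background 7.7%). The neural progenitor value of Myc is that of the whole class: in its Hox-bearing cells, described above, the E9.5 levels lay above those of E10.5, and cells with Otx2 UMIs gave 8 to 74 of the 28 to 197 Myc UMIs of an E10.5 library. The stage change of Hox-bearing progenitors alone was not tested. A test of the difference of the stage effect itself, added after these values were seen, set each class against mesenchymal cells of the same libraries. The stage effect of Mycn was higher, that is nearer to 0, by 1.87 ± 0.13 in Sox10 cells (adjusted p = 0.000173), by 1.84 ± 0.14 in neural progenitors (0.00174) and by 2.09 ± 0.23 in neuronal cells (0.0198). That of Myc was higher by 1.55 ± 0.36 (0.0250), 1.86 ± 0.30 (0.00757, over all neural progenitors, those with Otx2 UMIs included) and 2.603 ± 0.56 (0.0454). Calls in the same direction were made for 10.1%, 15.3% and 5.14% of all genes in these 3 tests, and calls in either direction for 13.2%, 21.7% and 6.49%. Without the control E9.5 library, the Myc calls of all 3 tests (1.65, 1.94 and 4.89) and the Mycn calls of the neural classes (1.77 and 2.02) were lost, and without the Tbx1 null E9.5 library the Myc calls (1.53, 1.83 and 1.88) and the neuronal Mycn call (2.19). The neuronal calls were also lost without control E10.5 replicate 1 (Myc 2.66 and Mycn 2.02), and that of Myc without Tbx1 null E10.5 replicate 1 (2.79) or 2 (2.50).

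**Figure D3:**
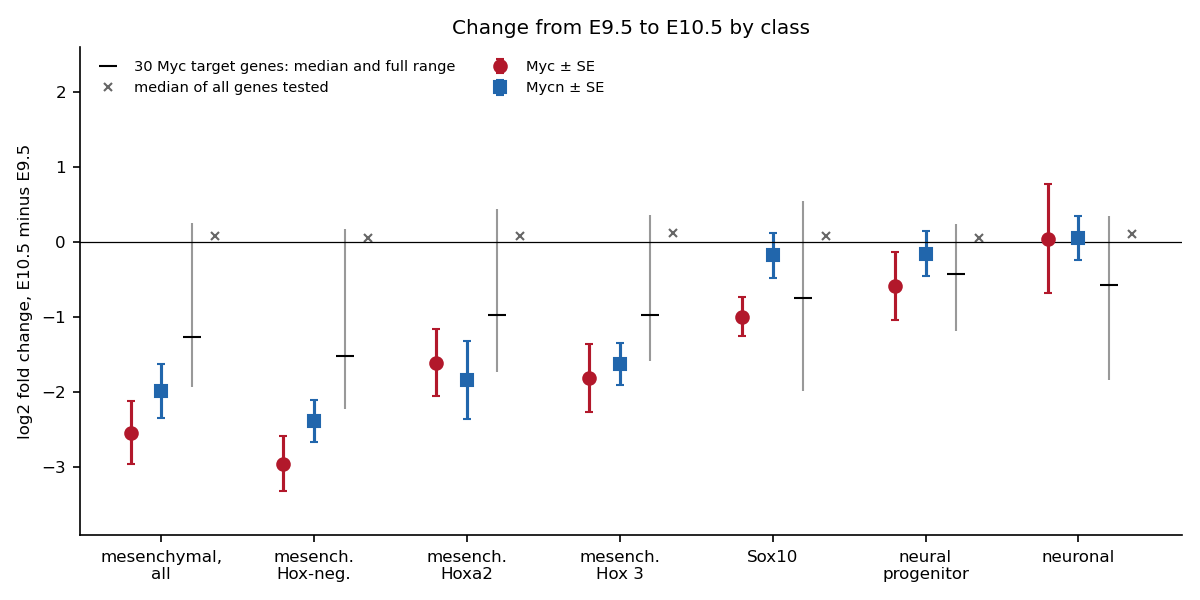
Log2 fold change from E9.5 to E10.5 (y axis) per class (x axis) for Myc and Mycn with SE bars, for the 30 listed Myc target genes (dash for the median, line for the full range) and for the median of all genes tested (cross). In mesenchymal cells Myc lies at -2.54, Mycn at -1.99 and the target median at -1.27, while in neuronal cells both members lie near 0.

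The list of 30 known Myc targets holds ribosome assembly factors, nucleolar proteins, chaperones and metabolic enzymes. It was chosen with earlier results of these data known, so its counts describe these genes and are not an independent test. In mesenchymal cells 27 of 30 fell from E9.5 to E10.5, against 11% of all genes called lower, with a median of -1.27 where all genes tested had 0.08. The strongest by p were Srm, the spermidine synthase (-1.93 ± 0.20, adjusted p = 0.00342), Ppan (-1.81 ± 0.19, 0.00342) and Rrs1 (-1.51 ± 0.17, 0.00410), which act in large ribosomal subunit assembly, and Gnl3, nucleostemin (-1.74 ± 0.18, 0.00342). Of the genes whose E-boxes are printed above, Ldha, lactate dehydrogenase A, fell by 1.79 on the log2 scale, the mitochondrial chaperone gene Hspd1 by 1.47, Nme1 by 0.98 and the cap-binding factor gene Eif4e by 0.81. Cdk4 (-0.42, adjusted p = 0.171), Polr1b (-0.77, 0.0518) and Ccnd2 (0.26, 0.323) did not pass. With library totals 20 of 30 were called lower and 1 higher, with a median of -0.76 where all genes had 0.60. All target calls in mesenchymal cells were lost without the control E9.5 library, and most were lost without the Tbx1 null E9.5 library. Each of these fits leaves a lone E9.5 library. The median was then -1.21 (without control E9.5) and -1.23 (without Tbx1 null E9.5), with 29 of 30 targets negative in each fit.

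By position and class the count of lower targets varied. Hox-negative cells had 28 of 30 lower (background 17.3%), Hox 3 cells 22 (7.2%), Hoxa2 cells 19 (5.93%) and Sox10 cells 19 (9.22%), while neural progenitors had 5 (3.68%) and neuronal cells 8 (2.76%), and in none of these was a target called higher. The medians were -1.52, -0.97, -0.97, -0.74, -0.42 and -0.57 in that order, beside 0.06 to 0.12 for all genes. With library totals the counts of lower targets were 24 in Hox-negative, 16 in Hox 3, 12 in Hoxa2, 7 in Sox10, 3 in neural progenitor and 4 in neuronal cells, with 1 target called higher in each but the last. Leaving out either E9.5 library kept most calls in Hox-negative cells and lost most or all of them in the other classes. In the order Hox-negative, Hox 3, Hoxa2, Sox10, neural progenitor and neuronal, the medians without control E9.5 were -1.39, -0.93, -0.89, -0.64, -0.37 and -0.45. Without Tbx1 null E9.5 they were -1.475, -1.09, -0.96, -0.71, -0.45 and -0.78. Leaving out an E10.5 library took the count of lower targets in Hoxa2 cells to 8 or 9 (control replicate 1 or 2), in Hox 3 cells to 11 (control replicate 1), in Sox10 cells to 12 (control replicate 2), in neural progenitors to 3 (either control replicate) or 8 (Tbx1 null replicate 1) and in neuronal cells to 4 (Tbx1 null replicate 2). In neural progenitors the 4 with the smallest p were the chaperone gene Hspe1 (-0.97 ± 0.18), Ldha (-1.18 ± 0.22), the nucleolar protein gene Npm1 (-1.04 ± 0.21) and Gnl3 (-0.64 ± 0.16). Between classes, 27 of 30 targets were lower and 1 higher in neuronal than in mesenchymal cells (background 36.1% lower and 29.1% higher) with a median of -0.74, and 12 lower and 1 higher in neural progenitors (background 26% and 19.7%) with a median of -0.18. Between Sox10 and mesenchymal cells the median was 0.07.

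The partners and antagonists of the network moved in both directions. Of 11 listed network genes in mesenchymal cells, 3 rose and 2 fell from E9.5 to E10.5, where 11% of all genes were called higher and 11% lower. Max, the partner that Myc and Mycn need for DNA binding, fell by 1.06 ± 0.25 (adjusted p = 0.0245). Mxd3 (1.13 ± 0.19, adjusted p = 0.00997) and Mxd4 (0.97 ± 0.23, 0.0253), which take Max from Myc, rose, and so did the family member Mycl (1.41 ± 0.28, 0.0154). Mycl was higher by a log2 difference of 1.99 ± 0.21 in neural progenitors and 1.95 ± 0.21 in neuronal cells than in mesenchymal cells (adjusted p = 1.15e-07 and 9.61e-08). Mxi1, another Max-binding antagonist, was higher in neuronal than in mesenchymal cells by 1.04 ± 0.10 (adjusted p = 1.45e-08), and Mxd1 by 0.96 ± 0.19 (0.000117). Of the 11, 5 were higher and 0 lower in neuronal than in mesenchymal cells (background 29.1% and 36.1%), and 2 were higher and 2 lower in neural progenitors (19.7% and 26%). Of 6 genes of Myc protein turnover, neuronal cells had Gsk3b (0.87 ± 0.11) and Fbxw7 (0.67 ± 0.14), which mark Myc for destruction, higher than mesenchymal cells, and Skp2 (-1.03 ± 0.14) and Aurka (-0.70 ± 0.18) lower. These 2 higher and 2 lower of 6 stand beside 29.1% and 36.1% of all genes, so the counts are near the background. Pvt1, the neighbour of Myc, was lower than in mesenchymal cells by 2.22 ± 0.32 in neural progenitors (adjusted p = 8.16e-06) and by 2.96 ± 0.38 in neuronal cells (1.1e-06), and it fell by 1.46 ± 0.36 (0.0270) from E9.5 to E10.5 in mesenchymal cells. The stage changes of Max, Mxd3, Mxd4, Mycl and Pvt1 come from the fit in which the Myc and Mycn calls were lost without either E9.5 library. Their values with a library left out or with library totals are not given.

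Signals that are known to act upstream of Myc were read from their feedback genes. Of 6 FGF feedback genes in mesenchymal cells, 5 fell from E9.5 to E10.5 (lower calls for 11% of all genes), among them the antagonists Spry4 (-2.42 ± 0.43, adjusted p = 0.0114), Spry2 (-1.25 ± 0.31, 0.0276) and Spry1 (-1.59 ± 0.43, 0.0373) and the transcription factor gene Etv5 (-1.27 ± 0.33, 0.0315). By position, 5 of 6 fell in Hox-negative cells (background 17.3% lower), where stage and first arch tissue cannot be told apart, 2 in Hoxa2 cells (Spry2 and Spry4, background 5.93%) and 0 in Hox 3 cells (7.2%), with medians of -1.90, -0.98 and -0.82. In Sox10 cells none of the 6 fell, and Etv5 (1.92 ± 0.34, adjusted p = 0.00571), Dusp6 (1.18 ± 0.28, 0.0174) and Etv4 (1.65 ± 0.41, 0.0208) rose (higher calls for 9.94% of all genes). All 6 were lower in neural progenitors and in neuronal cells than in mesenchymal cells, with medians of -3.15 and -3.48, where 26% and 36.1% of all genes were called lower. Of 4 Wnt feedback and target genes, only Axin2 passed in mesenchymal cells, where it rose from E9.5 to E10.5 (1.32 ± 0.30, adjusted p = 0.0231, background 11% higher). Axin2 and Nkd1 were higher in neural progenitors than in mesenchymal cells (1.47 ± 0.20 and 1.47 ± 0.24, background 19.7% higher), and the other 2 did not pass. The stage changes of these feedback genes come from the same fits as those of Myc and Mycn. In mesenchymal cells the calls of both members were lost there without either E9.5 library. Values of the feedback genes with a library left out or with library totals are not given.

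The comparison of Tbx1 null with control cells at E10.5 asked whether loss of Tbx1, which acts mainly in tissues beside the crest, moved either gene. In mesenchymal cells Mycn was at 29.6 and 24.0 CPM in the control replicates and at 74.0 and 33.8 CPM in the Tbx1 null replicates. The groups did not overlap in CPM, but they did after TMM scaling over all 7 libraries, with 26.4 and 21.9 CPM against 63.0 and 25.8 CPM. The test scaled the 4 libraries of E10.5 on their own, and levels on that scale are not given. Myc was at 5.39 and 5.82 CPM against 16.4 and 5.56 CPM, and the groups overlapped. Neither gene passed in any class at E10.5 (edgeR quasi-likelihood, 2 libraries against 2): the fold changes were positive throughout, from 0.34 to 1.56 on the log2 scale, with adjusted p from 0.110 to 0.873. The largest was that of Myc in Hox-negative cells (1.56 ± 0.41, unadjusted p = 0.00390, adjusted p = 0.110), where 0.734% of all genes were called. In those cells Tbx1 null replicates 1 and 2 gave 117 and 19 Myc UMIs from 324 and 143 cells. Control replicates 1 and 2 gave 60 and 128 Myc UMIs from 841 and 2218 cells. For Mycn the largest by p was in Sox10 cells (1.01 ± 0.30, unadjusted p = 0.00717, adjusted p = 0.376, background 0.0237%). Mycn in mesenchymal cells came to 0.87 ± 0.41 (adjusted p = 0.394) and Myc to 0.84 ± 0.52 (0.488), with a background of 0.0317%. In Hoxa2 cells 0.197% of genes were called, in Hox 3 cells 0.0137%, in neural progenitors 0.0298% and in neuronal cells 0. Of the 14 pairs of gene and class, 5 had an unadjusted p under 0.05, as did 14.3% of all genes in mesenchymal, 17% in Hox-negative, 13.2% in Hoxa2, 11.3% in Hox 3, 9.99% in Sox10, 7.77% in neural progenitor and 6.12% in neuronal cells, and DESeq2 called none (lowest adjusted p = 0.0846).

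These fold changes differed with and without Tbx1 null replicate 1, the E10.5 library of kit v3. Each fit without a library leaves a lone library in 1 arm, which is assumed to vary like the others, so its p-values take their spread from the other arm alone. Without Tbx1 null replicate 1, which leaves kit v3.1 alone, they ran from -0.54 to 0.62 over the 14 pairs (adjusted p from 0.347 to 0.999). Myc then came to -0.25 and Mycn to 0.10 in mesenchymal cells, and Mycn to 0.47 in Sox10 cells and 0.30 in neural progenitors. Without Tbx1 null replicate 2 they ran from 0.58 to 1.99, and 6 passed: Myc and Mycn in Hox-negative cells (1.99 and 1.15, adjusted p = 0.00571 and 0.0175), Myc and Mycn in Hoxa2 cells (1.46 and 1.88, 0.0134 and 0.00407), and Mycn in Sox10 cells (1.40, 1.62e-06) and in neural progenitors (1.33, 0.0111). Without control replicate 1 or 2 Myc passed in Hox-negative cells (1.55 and 1.56), and without control replicate 1 Mycn passed in neuronal cells (1.24). By somite staging, the embryos of Tbx1 null replicate 1 were also slightly younger than those of the other E10.5 libraries. For this library genotype, kit and stage cannot be told apart, while Tbx1 null replicate 2 shares its genotype with it and its kit with the controls. In Tbx1 null replicate 2 the neuronal markers in the mesenchymal class (682 CPM) stand beside its mesenchymal values, and their part in them was not tested. Without a filter on low counts, Myc in Hox-negative cells passed (1.497, adjusted p = 0.000423), as did Mycn in mesenchymal (0.85, 0.0317), Hoxa2 (1.15, 0.00243) and Sox10 cells (1.03, 0.00503).

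**Figure D4:**
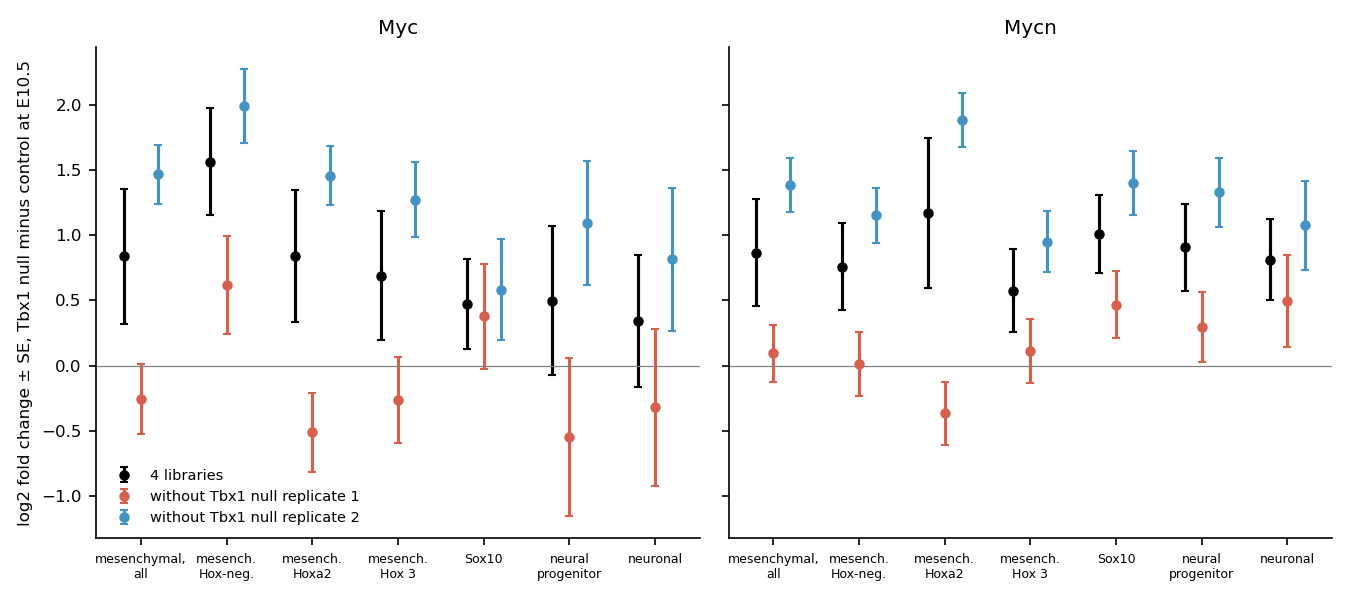
Log2 fold change of Tbx1 null over control cells at E10.5 with SE bars (y axis) per class (x axis) for Myc (left) and Mycn (right), over 4 libraries, without Tbx1 null replicate 1 and without Tbx1 null replicate 2. The values without replicate 1 lie between -0.54 and 0.62 and those without replicate 2 between 0.58 and 1.99.

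Over E9.5 and E10.5 together, with stage as a covariate (3 control and 3 Tbx1 null libraries), neither gene passed in any class (edgeR adjusted p from 0.619 to 0.988), and the largest value was again that of Myc in Hox-negative cells (0.93 ± 0.37, adjusted p = 0.651, unadjusted p = 0.0326). Of all genes, 0.0276% were called in Hoxa2, 0.0131% in Hox 3 and 0.00758% in Sox10 cells and 0 in the other classes. Without a filter on low counts that value passed (0.91, adjusted p = 0.00437). The difference of the genotype effect between Hox 3 and Hox-negative cells at E10.5 did not pass for Myc (-0.79 ± 0.23, unadjusted p = 0.00649, adjusted p = 0.297) or Mycn (-0.11 ± 0.13, adjusted p = 0.910, background 0.337%). The same held between neural progenitors and mesenchymal cells (Myc -0.24 ± 0.40, adjusted p = 0.867, and Mycn 0.12 ± 0.19, 0.851, background 0.0193%).

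At E9.5 there was 1 library per genotype, so these values have no replicate check, and the kit differed as well (v3.1 for control, v3 for Tbx1 null). The log2 ratio of Tbx1 null to control was -0.02 for Myc (counting interval -0.08 to 0.04) and -0.08 for Mycn (-0.11 to -0.04) in mesenchymal cells. In the Hox-bearing cells it was lower: for Myc -0.71 (-0.91 to -0.51) in Hox 3 cells and -0.47 (-0.68 to -0.26) in Hoxa2 cells, and for Mycn -0.20 (-0.29 to -0.11) and -0.39 (-0.48 to -0.30). In Hox-negative cells it was 0.06 (-0.01 to 0.13) and 0.01 (-0.03 to 0.05). The Hox 3 ratio of Myc moved to -0.47 with putative doublets kept and to -0.28 (-0.94 to 0.38) with cells thinned to 5000 UMIs. That of Mycn came to -0.12 with doublets kept, -0.11 with a gate of 4 UMIs and -0.26 with thinning. Thinning also changed the Hox groups, since the rules were applied to the thinned counts. The intervals cover counting error only and compare 2 libraries.

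Among mesenchymal cells the Hox groups were also compared with each other. With the library as a block, none of the 3 pairs of Hox groups passed for either gene (edgeR adjusted p from 0.275 to 0.814). The largest differences were Mycn in Hoxa2 against Hox-negative cells (0.33 ± 0.15, unadjusted p = 0.0397, adjusted p = 0.371, background 0.486%) and Myc in Hox 3 against Hox-negative cells (-0.39 ± 0.22, adjusted p = 0.275, background 12.1%). The libraries went both ways in the latter pair: by the levels given above, Myc was lower in Hox 3 cells at E9.5 and in both Tbx1 null replicates of E10.5, but higher in both control replicates of E10.5. Between Hox 3 and Hoxa2 cells, where 8.3% of genes were called, Myc differed by -0.12 ± 0.21 and Mycn by -0.20 ± 0.15. With cells thinned to 5000 UMIs Mycn was lower in Hox 3 than in Hox-negative (-0.30, adjusted p = 0.0495) and Hoxa2 cells (-0.40, 0.0261). The Hox rules were applied to the thinned counts there, so the groups changed as well.

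Since Myc and Mycn are tied to proliferation, cells with at least 2 UMIs of Top2a and Mki67 were set against cells with none in the same class and library. Most mesenchymal cells fell in the first group, from 77.3% to 90.9% per library, but 10.6% to 43.4% of neuronal cells. In neural progenitors Mycn was higher in cycling cells in each library: 87.0 against 81.9 CPM at E8.5, 66.1 against 37.0 and 66.0 against 45.0 CPM at E9.5 (control, Tbx1 null), 66.3 against 24.1 and 43.5 against 24.0 CPM in the control replicates, and 142 against 60.7 and 73.2 against 35.0 CPM in the Tbx1 null replicates at E10.5. The mean log2 difference was 0.86 ± 0.45 (SD, 7 of 7 libraries), and in mesenchymal cells 0.70 ± 0.46 (7 of 7). Both had an exact permutation p of 0.0156, the smallest possible, and 0.0625 over the 8 tests of this family, so they did not pass. Neuronal cells gave 1.51 ± 0.37 (6 of 6 libraries, exact permutation p = 0.0313, adjusted 0.0833). Myc did not share this pattern: 0.10 ± 0.30 in mesenchymal cells (4 of 7), -0.80 ± 0.83 in neural progenitors (1 of 7, exact permutation p = 0.0469, adjusted 0.0938) and -0.86 ± 1.67 in neuronal cells (1 of 6). The neuronal Myc value rests on counts near the floor. Cycling against other neuronal cells had 0 against 3.86 CPM in control E10.5 replicate 2 and 0.952 against 0 CPM in the Tbx1 null E9.5 library. These 2 differences depend on the 0.5 UMIs added to each count. In Sox10 cells, where only 3 libraries had 50 cells on both sides, Mycn was lower in cycling cells in 3 of 3 (-0.37 ± 0.08, with 0.25 the smallest p the exact permutation test allows) and Myc came to -0.31 ± 0.36. Cycling mesenchymal cells also held more UMIs, with medians of 17441 to 25073 per library against 10831 to 19938 in the others. With all cells thinned to 5000 UMIs the mean Mycn difference was 0.18 in mesenchymal cells, 0.63 in neural progenitors and 0.88 in neuronal cells. The class and cycling rules were then applied to the thinned counts, so the groups changed along with the depth. The part of each was not tested.

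Mesenchymal cells were also split by genes that mark position or differentiation in the arches, with at least 2 UMIs of the named genes against none. Mycn was higher in cells with Dlx5 and Dlx6 UMIs, factors of the distal arch, in 6 of 6 libraries: 203 against 130 CPM at E8.5, 141 against 80.9 and 130 against 76.0 CPM at E9.5 (control, Tbx1 null), 35.2 against 24.2 and 31.2 against 17.3 CPM in the control replicates and 124 against 59.1 CPM in Tbx1 null replicate 1 at E10.5. The mean log2 difference was 0.78 ± 0.18 (SD). It was lower in cells with Isl1 and Gata3 UMIs, genes used as marks of the outflow tract and ventral arch, by -0.85 ± 0.40, and in cells with the smooth muscle genes Acta2, Tagln and Cnn1 by -0.91 ± 0.37, in 6 of 6 libraries each. These 3 splits shared an exact permutation p of 0.0313, the smallest that 6 libraries can give, and an adjusted p of 0.0833 over 8 tests, so none passed. Mycn hardly differed by Hand2 UMIs (0.11 ± 0.32, 4 of 6). Myc was lower in cells with Hand2, a ventral arch factor, in 5 of 6 libraries (-0.69 ± 0.66) and in cells with Isl1 and Gata3 in 5 of 6 (-0.78 ± 0.74), both with an exact permutation p of 0.0938 and 0.15 after adjustment. For the Dlx genes (-0.22 ± 0.27) and the smooth muscle genes (-0.01 ± 1.02, 3 of 6) the adjusted exact permutation p for Myc was 0.208 and 1. The mesenchymal class of Tbx1 null replicate 2 carried 682 CPM of neuronal markers, a list that holds Isl1, and the part of these in the splits was not tested. Its Myc differences were 0.59 for Hand2 and 0.39 for Isl1 and Gata3, and without this library the means were -0.94 and -1.02. In Tbx1 null replicate 2, Myc was at 13.8 CPM in smooth muscle gene cells against 4.77 CPM in the others, and in the Tbx1 null E9.5 library at 14.9 against 32.6 CPM.

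**Figure D5:**
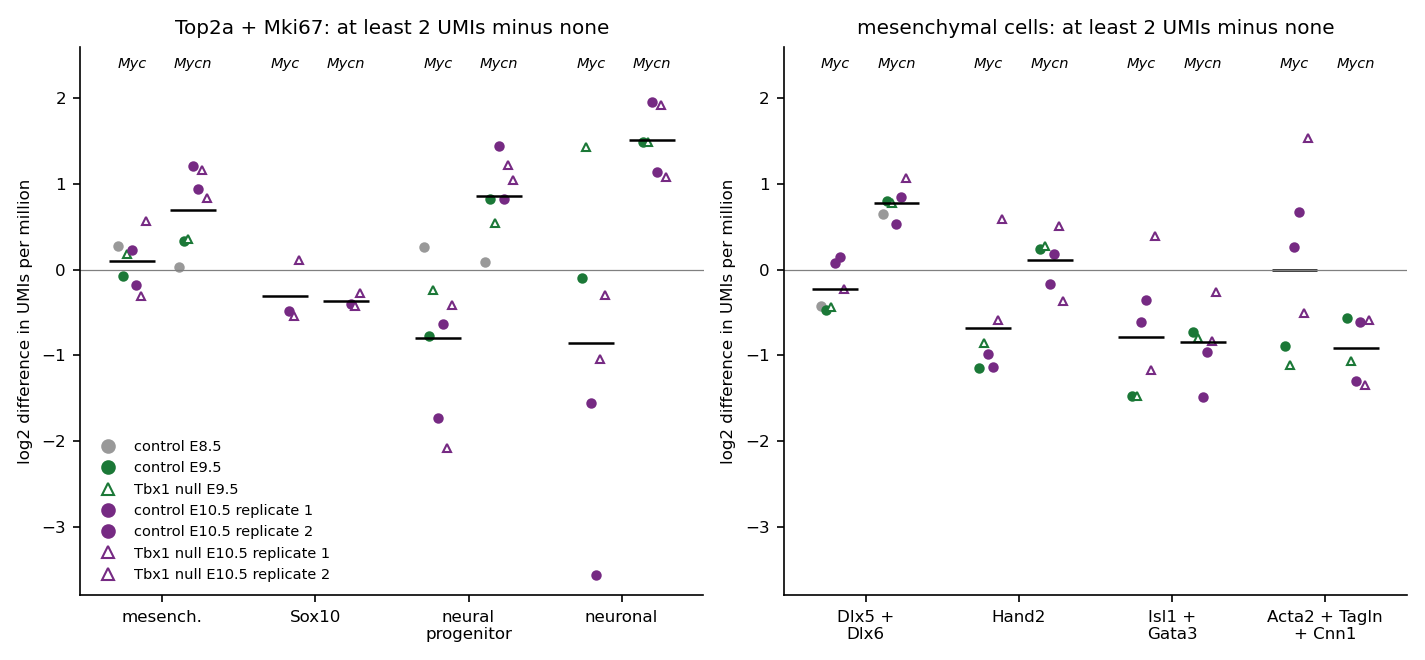
Log2 differences in CPM for Myc and Mycn, 1 point per library (circles control, triangles Tbx1 null, colour by stage) with a bar at the mean: cycling minus other cells in the 4 classes (left), and mesenchymal cells with minus without UMIs of the named genes (right). The Mycn means are 0.70, 0.86 and 1.51 in mesenchymal, neural progenitor and neuronal cells, and the Mycn points of Dlx5 and Dlx6 run from 0.54 to 1.07.

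Across the 28 columns of 4 classes and 7 libraries, log2(CPM + 1) of Myc and Mycn had a Pearson correlation of 0.634, given as a description because the columns share libraries and depth. The genes most like Myc among 5549 with a mean of at least 20 CPM were Dcun1d5 (0.922), a neddylation factor, Eif1a (0.882), a translation initiation factor, Eef1akmt4 (0.880), Pfn1 (0.877), which binds actin, and Nifk (0.874), a nucleolar protein. Those most like Mycn were Enoph1 (0.915), Bop1 (0.909), a ribosome assembly factor from the target list, Hprt (0.908), of purine salvage, Pgd (0.904), of the pentose phosphate pathway, and Farsb (0.893), a tRNA synthetase subunit.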

How the data were processed

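Single-cell 3′ libraries (10x kits v2, v3 and v3.1) of sorted EGFP-positive cells were sequenced by the authors, and the deposited matrices hold raw UMI counts per gene and barcode, made with Cell Ranger 6.0.1 on mm10 according to the submitters' processing notes. Groups follow the titles. No column of another series was used.

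Barcodes were kept from 1000 detected genes upward if mitochondrial UMIs made up no more than 10%, and the barcodes with the highest Scrublet scores (scanpy 1.11.5) were removed at 0.8% per 1000 barcodes. UMI counts were summed per library and class, with at least 50 cells, and tested with edgeR 4.0.16 (quasi-likelihood, TMM, filterByExpr) in R 4.3.3, adjusted by Benjamini-Hochberg over all genes at a threshold of 0.05. SE is the fold change over the square root of F. Differences within libraries were tested by exact two-sided sign-flip permutation in Python 3.11.15, with 0.5 UMIs added to each count. Intervals are exact 95% Poisson or binomial and cover counting error only. Replicates are libraries of pooled embryos, and p-values measure the spread between them.

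Myc and Mycn are named in each result. Of the lists (11 network genes, 6 of turnover, 30 targets, 6 FGF and 4 Wnt genes, Pvt1), up to 4 called members per result are named by smallest p. Further targets with a printed E-box, and targets that did not pass, were named after their values were seen. The 5 most alike genes had the highest Pearson r among genes with a mean of at least 20 CPM. Members and lists were chosen with earlier results of these data known.

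Alternatives were DESeq2 1.42.0 and its size factors, no filter on low counts, looser or stricter cell filters, doublets kept, a gate of 4 UMIs, cells thinned to 5000 UMIs, cells of both gates added, a replicate block and each library left out. With thinning, the class, Hox and marker rules were applied to the thinned counts. On simulated counts for the real genes, 2-fold changes of 200 genes were recovered to 88% for genotype at E10.5 in mesenchymal cells (15791 genes), 99% for stage (16512 genes) and 24.5% for the genotype difference of Hox 3 and Hox-negative cells (14929 genes). All genes were simulated with the same fixed spread, which was not estimated from these libraries. The shares therefore do not give the power of the real tests, where the mesenchymal genotype SE was 0.52 for Myc and 0.41 for Mycn.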

Additional observations from a re-analysis of the deposited data

Results flagged for a closer look

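In 20 checks for a sample far from its group, of which chance marks about 1 in 20, a pair stood out. Tbx1 null replicate 2 at E10.5 had a log2 difference of 0.59 for Myc between mesenchymal cells with and without Hand2 UMIs, while the next of the 6 libraries had -0.59. The mesenchymal class of that replicate carried 682 CPM of neuronal markers, against 15.7 to 123 CPM in the other libraries, and their part in the value was not tested. The Tbx1 null E9.5 library had a log2 ratio of Myc to Mycn UMIs that was 3.89 higher in mesenchymal than in neuronal cells, against 1.91 in the next of 7 libraries, and its neuronal value rests on 1 Myc UMI.

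The change from E9.5 to E10.5 differed between classes in tests of the difference itself, added after the data were seen. Against mesenchymal cells the log2 change of Mycn was higher by 1.87 in Sox10 cells, 1.84 in neural progenitors and 2.09 in neuronal cells, and that of Myc by 1.55, 1.86 and 2.603. Calls in that direction were made for 10.1%, 15.3% and 5.14% of all genes. The Myc calls were lost when either E9.5 library was left out. The neuronal E9.5 values rest on 11 and 1 Myc UMIs.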

How the results depend on the processing

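Of 1383 values of 112 results under the alternatives, 1200 kept their direction and side of the threshold (or, without a test, moved little), 73 lost a call, 30 gained one, 72 changed sign and 8 moved beyond counting error. Causes were not tested. Library totals, control libraries alone and the stage tests between classes were chosen after seeing the data. Low Myc counts in neural classes limit what can be seen there.

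Stage (E10.5 minus E9.5). Mycn in Hoxa2 cells passed with DESeq2 size factors (-1.88), both gates (-1.84), doublets kept (-1.87), a gate of 4 (-1.94), no filter (-1.80), thinning (-1.87) and control libraries alone (-2.57), which also called Mycn in Sox10 cells (-0.71) and in which the lone E9.5 library is assumed to vary like the others. Myc in Hoxa2 cells missed with the other cell filter (-1.59) and library totals (-1.29), and in Sox10 cells with library totals (-0.61) and thinning (-1.55). Mycn changed sign in Sox10 cells with library totals (0.20) and in neural progenitors with library totals (0.15) and thinning (0.040). In neuronal cells Mycn turned to -0.0090 (DESeq2), -0.013 (its size factors), -0.098 (gate of 4) and -0.33 (control libraries), and Myc to -0.020, -0.16 and -0.94 under the last 3. Myc in neuronal against mesenchymal stage effects lost its call with library totals (2.33). Target counts rose from 5 to 13 in neural progenitors and from 8 to 14 in neuronal cells with DESeq2.

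Genotype. No filter called Mycn in mesenchymal (0.85), Hoxa2 (1.15) and Sox10 cells (1.03) and Myc in Hox-negative cells (1.497, and 0.91 over both stages). Replicate numbers did not pair the libraries (only 2 pairs, same-number correlations of 0.035 to 0.26 over classes), and with a replicate block Myc in Hox-negative cells (1.42) and Mycn in neural progenitors (0.88) passed. Over both stages thinning turned Myc in Sox10 (-0.34), neural progenitor (-0.048) and neuronal cells (0.074). Between classes the genotype effect of Mycn turned with both gates (0.025 for Hox 3 minus Hox-negative, -0.021 for neural progenitor minus mesenchymal) and thinning (-0.042), and that of Myc with a gate of 4 (0.068). At E9.5, doublets kept gave -0.47 for Myc in Hox 3 and -0.26 for Mycn in Hoxa2 cells, and thinning gave Myc -0.030 (Hox-negative), -0.28 (Hox 3), -0.82 (Sox10) and -0.94 (neural progenitors) and Mycn -0.050 (Hox-negative) and -0.36 (Sox10).

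Classes. Myc in Sox10 minus mesenchymal cells lost its call with both gates (-0.45), in neural progenitor minus Sox10 cells with a gate of 4 (-0.65) and in neuronal minus Sox10 cells with thinning (-0.88). Mycn in neuronal minus mesenchymal cells lost it with a gate of 4 (-0.49) and library totals (-0.54), and in neuronal minus neural progenitor cells with a gate of 4 (-0.44). Mycn in neural progenitor minus mesenchymal cells turned with both gates (-0.024) and a gate of 4 (-0.051), and Myc in neuronal minus neural progenitor cells with thinning (0.33). Thinning also gave Mycn -0.30 in Hox 3 minus Hox-negative and -0.40 in Hox 3 minus Hoxa2 cells (both called), a Myc to Mycn difference of -0.46 for Sox10 minus neuronal and -1.43 for neural progenitor minus neuronal cells (the latter called, and 0.22 with a gate of 4), a cycling difference of -0.19 for Myc in mesenchymal cells, and position differences of 0.19 for Myc (Isl1 and Gata3) and -0.17 for Mycn (Hand2). The smooth muscle difference of Myc turned with the other cell filter (0.055).

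Leaving out each library gave these ranges. Genotype at E10.5: Myc -0.25 to 1.47 (mesenchymal), 0.62 to 1.99 (Hox-negative), -0.51 to 1.46 (Hoxa2), -0.26 to 1.27 (Hox 3), -0.54 to 1.28 (neural progenitors) and -0.32 to 0.82 (neuronal), and Mycn 0.014 to 1.15 (Hox-negative), -0.36 to 1.88 (Hoxa2), 0.47 to 1.40 (Sox10), 0.30 to 1.34 (neural progenitors) and 0.50 to 1.24 (neuronal). Over both stages: Myc -0.18 to 0.85 (mesenchymal), -0.53 to 0.85 (Hoxa2), -0.52 to 0.70 (Hox 3), -0.018 to 0.47 (Sox10), -0.35 to 0.60 (neural progenitors) and -0.77 to 0.34 (neuronal), and Mycn -0.0058 to 0.88 (mesenchymal), -0.026 to 0.72 (Hox-negative), -0.41 to 1.17 (Hoxa2) and -0.086 to 0.59 (Hox 3). Stage: Myc -3.06 to -2.05 (mesenchymal), -2.24 to -0.87 (Hoxa2), -2.52 to -0.996 (Hox 3), -1.34 to -0.66 (Sox10) and -0.91 to 2.49 (neuronal), and Mycn -2.46 to -1.45 (mesenchymal), -2.57 to -0.95 (Hoxa2), -2.07 to -1.16 (Hox 3), -0.72 to 0.43 (Sox10), -0.56 to 0.29 (neural progenitors) and -0.30 to 0.45 (neuronal). Classes: Myc -1.18 to -0.75 (Sox10 minus mesenchymal), and Mycn 0.40 to 0.74 (the same pair), -0.089 to 0.26 (neural progenitor minus mesenchymal), -0.76 to -0.39 (neuronal minus mesenchymal) and -0.79 to -0.61 (neuronal minus neural progenitor). Differences of the genotype effect: Mycn -0.19 to 0.16 (Hox 3 minus Hox-negative) and -0.13 to 0.42 (neural progenitor minus mesenchymal), and Myc -0.96 to 0.36 (the latter pair). Differences of the stage effect from mesenchymal cells: Myc 1.21 to 1.93 (Sox10), 1.64 to 2.02 (neural progenitors) and 1.88 to 4.89 (neuronal), and Mycn 1.77 to 1.93 (neural progenitors) and 1.961 to 2.19 (neuronal). Myc to Mycn ratio: 1.32 to 1.60, 1.87 to 2.30 and 1.43 to 1.95 for mesenchymal minus Sox10, neural progenitor and neuronal cells, and -0.043 to 0.57 for Sox10 minus neuronal cells. Smooth muscle genes: Myc -0.32 to 0.21.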

Other observations

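A small group of neural progenitors with at least 2 UMIs of Otx2 had another balance of both genes. It was noticed after the values were seen and carries no test. At E10.5 these cells numbered 33 and 32 in the control replicates and 55 and 26 in the Tbx1 null replicates. Myc made up 90.0% of their Myc and Mycn UMIs (exact 95% binomial interval 68.3% to 98.8%), 100% (79.4% to 100%), 91.4% (83% to 96.5%) and 57.1% (28.9% to 82.3%), while in Hox-bearing progenitors of the same libraries it made up 1.03%, 2.63%, 1.72% and 2.08%. At E8.5, where the tissue held the head, 879 neural progenitors passed the same Otx2 rule and had a share of 29.0%. The head was removed at E10.5, and whether the cells of both stages are of the same kind was not tested. The leading gene of the E10.5 group was Ttr, transthyretin, at 1334 CPM against 1.26 CPM in the other progenitors, and Colec12 was at 896 against 19.7 CPM. The group is left without a cell type name.

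Cells that passed both the mesenchymal and the Sox10 rule had Myc at 55.8 CPM at E8.5 and at 25.3 (control) and 18.2 CPM (Tbx1 null) at E9.5, and Mycn at 169, 107 and 101 CPM. In the Tbx1 null replicates of E10.5, with 145 and 157 such cells, Myc was at 14.6 and 13.7 CPM and Mycn at 181 and 81.2 CPM, so Mycn in replicate 1 lay above the E8.5 value. The control replicates of E10.5 held 10 and 21 such cells and give no level.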
